A study of Mus musculus with 12 samples.

Results

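The genes described here are 10 that load peptides onto MHC class I, the surface molecule that shows fragments of a cell's own proteins to CD8 T cells. They were chosen by name and role: the immunoproteasome subunits Psmb8, Psmb9 and Psmb10, the proteasome activator subunits Psme1 and Psme2, the peptide transporter subunits Tap1 and Tap2, the loading factor Tapbp (tapasin), the class I light chain B2m and the transcriptional regulator Nlrc5. The choice was made with earlier results of these data known. All 10 were found among the 56,941 genes of the deposited table, and all 10 were among the 20,034 genes tested. The nodes came from wild-type mice (WT) and from mice lacking the microRNA miR-451a (knockout, KO), with no allele, strain, age or sex given in the labels. The skin sensitizer 1-fluoro-2,4-dinitrobenzene (DNFB) was painted on the shaved abdomen of every mouse, 100 µl at 0.5% on days 0, 1 and 2. Mandibular nodes were taken on day 9 without further treatment (WT_se, KO_se) or after a challenge of the left ear on day 9 with 20 µl at 1%, harvested 24 hours later on day 10 (WT_DTH, KO_DTH). Each of the 4 groups held 3 libraries, 12 in all. No group of untreated mice was analysed here, so the sensitized groups are the baseline. Challenge and harvest day go together in these groups, so their effects cannot be told apart.

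Proteasomes cut cytosolic proteins into peptides. Cells exposed to interferon-γ replace the 3 catalytic subunits of the standard proteasome by the immunoproteasome subunits, and the PA28 ring made of Psme1 and Psme2 caps the barrel. The TAP pump (Tap1 with Tap2) carries the peptides into the endoplasmic reticulum, where tapasin holds it next to empty class I molecules. Irf1 is a transcription factor induced by interferon-γ, and Nlrc5 is recruited to class I promoters by RFX factors.

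Libraries held 36.9 to 58.4 M estimated counts. The lowest count of any of the 10 genes in any library was 1850, where counting error alone is 2.3%. Levels are given in CPM, counts brought to a common library size after TMM scaling (trimmed mean of M values). Salivary gland transcripts were present in every library and differed between groups. The summed level of 16 salivary markers was 79766 to 160930 CPM in WT_se and 18407 to 30344 CPM in WT_DTH. Knockout libraries held 26927 to 69545 CPM when sensitized and 37171 to 108340 CPM when challenged. Mitochondrially encoded genes took 14.0 to 19.4% of the counts in WT_se libraries against 4.53 to 6.02% in WT_DTH libraries. In the knockout the share was 12.2 to 16.3% when sensitized and 5.75 to 16.0% when challenged. T cell and B cell markers of the node were detected in every group, with none of the 9 T cell and 6 B cell markers at 0 in a whole group. In such whole-node RNA, fewer cells of a type and less RNA per cell cannot be told apart.

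Promoter sequences of 3 locations are shown first. These genes rose after challenge averaged over genotypes and each window holds a match to one of the elements searched. The same holds for Psmb8, Psmb9 and Tapbp, whose windows are not shown. The sequences come from RefSeq on build GRCm38.p6, run 5′ to 3′ in the direction of the named gene, and span 250 bases before the annotated start to 50 after it. Capitals mark matches on either strand to GAAANNGAA (an interferon-regulatory-factor element) or CCAAT (a box bound by NF-Y, found in class I promoters). TTCNNNGAA, the gamma-activated sequence of interferon-responsive promoters, was searched as well and is absent from these 3. The first sequence, chr17:34187306-34187605 on the plus strand, is that of Tap1. The second is that of B2m, chr2:122147437-122147736, plus strand. The third is that of Psme1, chr14:55578244-55578543, plus strand.
Tap1: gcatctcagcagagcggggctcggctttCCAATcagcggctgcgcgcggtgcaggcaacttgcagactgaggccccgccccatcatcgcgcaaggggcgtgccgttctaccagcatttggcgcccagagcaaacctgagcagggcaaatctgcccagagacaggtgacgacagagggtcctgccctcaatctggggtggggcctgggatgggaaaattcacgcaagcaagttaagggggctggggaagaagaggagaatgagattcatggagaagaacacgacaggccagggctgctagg
B2m: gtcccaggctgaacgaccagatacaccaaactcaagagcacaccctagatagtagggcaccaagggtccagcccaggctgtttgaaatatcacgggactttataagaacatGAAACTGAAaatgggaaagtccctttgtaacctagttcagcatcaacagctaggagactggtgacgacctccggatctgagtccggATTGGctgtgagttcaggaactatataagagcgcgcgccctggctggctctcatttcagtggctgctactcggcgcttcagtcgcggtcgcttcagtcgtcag
Psme1: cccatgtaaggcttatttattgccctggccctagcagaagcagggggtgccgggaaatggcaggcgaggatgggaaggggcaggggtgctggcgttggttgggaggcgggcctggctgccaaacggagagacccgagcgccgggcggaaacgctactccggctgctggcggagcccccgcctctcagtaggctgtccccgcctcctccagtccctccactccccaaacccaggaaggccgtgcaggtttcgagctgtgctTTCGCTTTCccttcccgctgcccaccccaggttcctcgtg

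Tap1 and Psmb9 are divergent neighbours. The Psmb9 window, chr17:34187281-34187580 on the minus strand, overlaps that of Tap1 by 275 bases, and the capitalized CCAAT of the Tap1 sequence is also the only match of the Psmb9 window. In the annotation used for gene order the protein-coding genes on chromosome 17 run H2-DMb1, Psmb9, Tap1, Psmb8, Tap2, H2-Ob, within the MHC class II region. Tapbp lies on the same chromosome, between Zbtb22 and Rgl2. Psme1 and Psme2 lie on chromosome 14 with Emc9 between them, Psmb10 and Nlrc5 are both on chromosome 8, and B2m is on chromosome 2. RefSeq windows matched 8 of the 10 genes, not Tap2 and Nlrc5. The IRF element matched in B2m (GAAACTGAA, first base at -139 counted from the start as 0) and Psme1 (TTCGCTTTC, the reverse strand, at 10). It is found in 8.56% of the 32,851 windows of the RefSeq table. The gamma-activated sequence matched in Psmb8 alone (TTCCCAGAA at -97, in the window chr17:34197945-34198244) and is found in 8.30% of all windows. CCAAT, present in 37.4% of all windows, matched in B2m, Tap1, Psmb9 and Tapbp. A match describes letters and is not evidence of a bound site.

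The comparison of challenged with sensitized nodes asks whether the ear challenge was followed by higher transcript levels of this machinery in the mandibular node. In both genotypes it was. Averaged over genotypes all 10 genes rose (edgeR quasi-likelihood test, Benjamini-Hochberg adjusted p below 0.05), against 11.8% of all tested genes called higher. Their median log2 fold change was 0.84, from 0.28 for B2m to 1.26 for Tap1, where the median over all genes was -0.032. In wild type all 10 rose (9.77% of all genes were called higher) with a median of 0.89. In the knockout 9 rose, all but B2m (5.81% of all genes were called higher), with a median of 0.75. The wild-type and knockout comparisons contrast different libraries. Both come from the same fit to all 12 libraries, with a shared estimate of spread, so they are not fully independent.

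**Figure D1:**
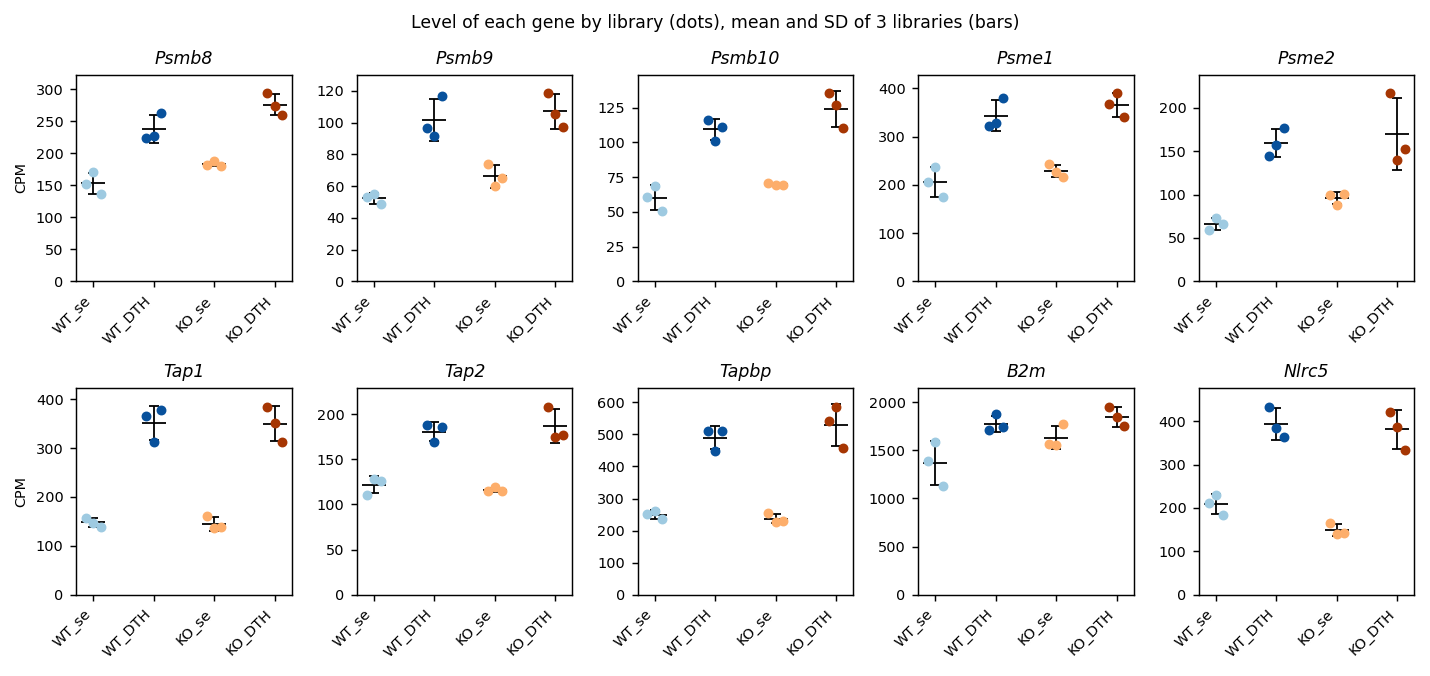
Level in CPM (vertical axis, from 0) of each of the 10 genes in each library (dots), by group (horizontal axis), with the mean and SD of 3 libraries (bars). In 9 of the 10 panels the challenged libraries of a genotype lie above its sensitized libraries, and B2m overlaps in the knockout. The share of all tested genes without such overlap was not computed.

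The catalytic subunits act first in the pathway. Psmb8 (LMP7, ENSMUSG00000024338), which replaces Psmb5, stood at 151, 170.3 and 137 CPM in WT_se and at 224, 227 and 263 in WT_DTH. In the knockout it stood at 183, 188 and 180.4 CPM in KO_se and at 294, 274 and 261 in KO_DTH. Every challenged library of a genotype lay above every sensitized one. The log2 fold change was 0.64 ± 0.09 (SE; adjusted p = 0.000684) in wild type and 0.59 ± 0.09 (adjusted p = 0.00178) in the knockout.

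Psmb9 (LMP2, ENSMUSG00000096727), which replaces Psmb6, was lowest of the 10 genes in CPM when sensitized. It held 53.3, 54.9 and 48.6 CPM in WT_se and 96.4, 91.7 and 117 in WT_DTH. KO_se libraries held 74.0, 59.8 and 65.1 CPM and KO_DTH libraries 118, 106 and 97.1. Neither genotype's groups overlapped, and the log2 fold change was 0.96 ± 0.11 in wild type (adjusted p = 0.000154) and 0.69 ± 0.11 in the knockout (adjusted p = 0.00205).

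Psmb10 (MECL-1, ENSMUSG00000031897), which replaces Psmb7, went from 61.0, 68.9 and 50.7 CPM in WT_se to 116, 101 and 111 in WT_DTH. It went from 70.8, 69.0 and 69.4 CPM in KO_se to 135, 127 and 110.2 in KO_DTH. The 3 KO_se libraries were close to one another, and the groups of neither genotype overlapped. With 0.86 ± 0.11 in wild type (adjusted p = 0.000253) and 0.83 ± 0.11 in the knockout (adjusted p = 0.000487), it rose by 0.85 ± 0.08 averaged over genotypes, against 0.83 ± 0.08 for Psmb9, a difference within the SE.

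The standard catalytic subunits had smaller changes. Averaged over genotypes none of the 3 passed by edgeR, with log2 fold changes of 0.23 ± 0.08 for Psmb5 (adjusted p = 0.052), 0.13 ± 0.06 for Psmb6 (adjusted p = 0.126) and 0.05 ± 0.07 for Psmb7 (adjusted p = 0.693). Unadjusted, 2 of the 3 had p below 0.05, and by DESeq2 1 passed. In wild type Psmb5 rose (0.40 ± 0.11, adjusted p = 0.0216).

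Ratios of counts within a library, which do not depend on library scaling, set each immunoproteasome subunit against the standard subunit it replaces. Psmb8 over Psmb5 was 4.08, 4.08 and 3.92 in WT_se and 5.14, 4.12 and 5.12 in WT_DTH, and 3.78, 3.47 and 3.65 in KO_se against 5.56, 4.75 and 5.57 in KO_DTH. WT_DTH replicate 2 thus nearly touched the sensitized libraries. Psmb9 over Psmb6 was 0.767, 0.797 and 0.851 in WT_se and 1.29, 1.33 and 1.50 in WT_DTH, and 1.03, 0.799 and 0.879 in KO_se against 1.47, 1.33 and 1.30 in KO_DTH. Psmb10 over Psmb7 was 1.23, 1.08 and 0.946 in WT_se and 1.99, 1.45 and 1.59 in WT_DTH, and 0.967, 0.894 and 0.857 in KO_se against 1.83, 1.94 and 1.57 in KO_DTH. In each of the 3 pairs no challenged library of a genotype fell below a sensitized one.

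Averaged over genotypes the ratio rose 1.31-fold for Psmb8 over Psmb5, 1.61-fold for Psmb9 over Psmb6 and 1.74-fold for Psmb10 over Psmb7. Each gave p = 0.005 in a two-sided exact permutation test of state within genotype, the smallest p the 400 arrangements allow (0.006 adjusted over the 6 ratios computed). The per-genotype changes in log2 were 0.24 and 0.54 for the first pair, 0.77 and 0.61 for the second and 0.62 and 0.97 for the third, wild type first. Whether the genotypes differ in these changes was not tested. Transcript ratios say nothing of how many assembled proteasomes hold either subunit.

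**Figure D2:**
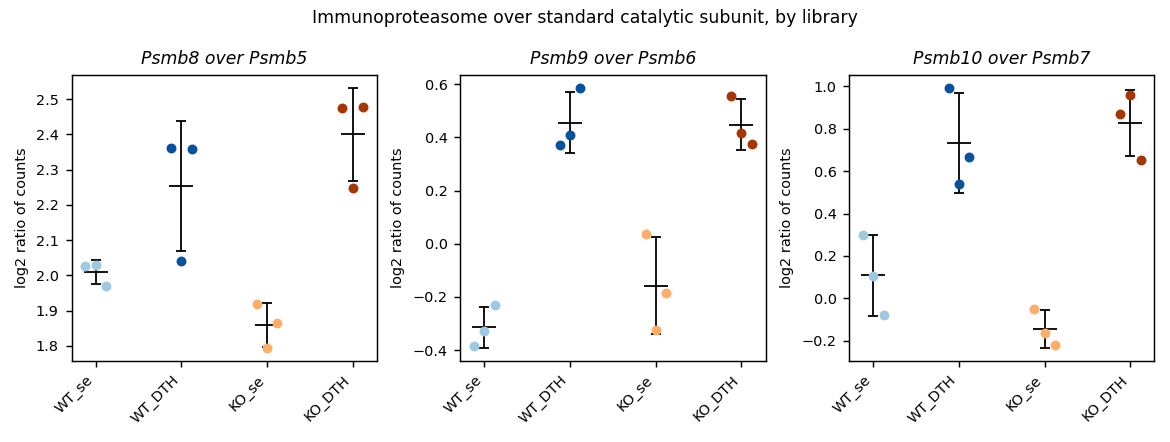
Log2 ratio of counts (vertical axis) of each immunoproteasome subunit over the standard subunit it replaces, by group (horizontal axis), with 1 dot per library and bars for mean and SD of 3 libraries. Challenged libraries lie above sensitized ones in every panel, most narrowly for Psmb8 over Psmb5 in wild type.

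Changes of other proteasome genes were smaller. Of the 11 remaining subunits of the 20S barrel 6 rose averaged over genotypes, with a median of 0.20, led by Psma7 (0.27 ± 0.06, adjusted p = 0.00608) and Psma4 (0.28 ± 0.06, adjusted p = 0.00664). Of these 11, 8 rose in wild type and none by edgeR in the knockout, where 1 had an unadjusted p below 0.05 and none passed by DESeq2. For no 20S subunit did the difference between those changes pass edgeR's test of the interaction, though 8 of 11 had an unadjusted p below 0.05 and 1 passed by DESeq2, all with the smaller change in the knockout. Of 18 genes of the 19S cap, which feeds ubiquitinated proteins into the barrel, 6 rose averaged over genotypes (median 0.13), among them Psmd11 (0.35 ± 0.05, adjusted p = 0.000443). Pomp, a chaperone of proteasome assembly, was 1 of 2 among 5 assembly genes to rise (0.26 ± 0.08, adjusted p = 0.0273), the other being Psmg4 (0.51 ± 0.10, adjusted p = 0.00328).

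PA28 is a ring of the 2 activator subunits. Psme1 (ENSMUSG00000022216) held 206, 237 and 175 CPM in WT_se and 321, 329 and 379.9 in WT_DTH. In the knockout it held 243, 227 and 217 CPM in KO_se and 367, 389 and 339.5 in KO_DTH. The groups were well apart in both genotypes, and Psme1 rose by 0.73 ± 0.11 in wild type (adjusted p = 0.000849) and by 0.67 ± 0.11 in the knockout (adjusted p = 0.00237).

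Psme2 (ENSMUSG00000079197) held 59.4, 72.9 and 66.4 CPM in WT_se and 145, 157 and 177 in WT_DTH. It held 99.9, 88.5 and 101 CPM in KO_se and 217, 140.1 and 153 in KO_DTH. It rose by 1.27 ± 0.15 in wild type (adjusted p = 0.00015) and by 0.82 ± 0.15 in the knockout (adjusted p = 0.00387). Psme2 has a close copy, Psme2b (ENSMUSG00000078153), between which reads may have been divided unevenly. Psme2b held 56.0, 74.6 and 37.6 CPM in WT_se and 59.7, 52.8 and 63.7 in WT_DTH. It held 46.7, 60.5 and 53.2 CPM in KO_se and 70.8, 107 and 80.8 in KO_DTH. The KO_DTH library with the most Psme2 had the least Psme2b, and the one with the most Psme2b the least Psme2. In wild type the library with the most Psme2 also had the most Psme2b, in WT_se (72.9 and 74.6 CPM) and in WT_DTH (177 and 63.7 CPM). How reads were divided was not tested. With both counts summed the rise was 0.83 ± 0.12 in wild type and 0.77 ± 0.12 in the knockout, which brings the values of the genotypes closer together and closer to those of Psme1. The sum was added after the data were seen.

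Psme3, which forms an activator ring of its own in the nucleus, rose by 0.26 ± 0.05 averaged over genotypes (adjusted p = 0.00167) and Psme4, another activator, by 0.18 ± 0.06 (adjusted p = 0.0449). Within libraries Psme1 over Psme3 rose 1.37-fold (exact permutation p = 0.005, 0.006 adjusted over the 6 ratios). Psme2 over Psme1 gave 1.25-fold (exact permutation p = 0.05, also 0.05 adjusted), at the threshold and not past it, with 0.53 in log2 in wild type and 0.12 in the knockout. Both ratios were added after the data were seen, and the second is touched by the split between Psme2 and Psme2b.

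Transport into the endoplasmic reticulum comes next. Tap1 (ENSMUSG00000037321) held 158, 147 and 139 CPM in WT_se and 365, 312 and 378 in WT_DTH. It held 161, 136 and 138 CPM in KO_se and 385, 352 and 313 in KO_DTH. Every challenged library was far above every sensitized one, and the genotypes overlapped in each state.

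Tap1 rose by 1.25 ± 0.11 (adjusted p = 2.35e-05) in wild type and by 1.27 ± 0.11 (adjusted p = 3.45e-05) in the knockout. Tap2 (ENSMUSG00000024339), its partner in the pump, held 111, 128 and 126 CPM in WT_se and 188, 169 and 185 in WT_DTH, and 115, 119 and 115 in KO_se against 208, 175 and 176 in KO_DTH. It rose by 0.57 ± 0.09 (adjusted p = 0.000904) and 0.68 ± 0.09 (adjusted p = 0.000395), again with no overlap of groups. The 2 subunits of the pump thus rose unequally. Tap1 over Tap2 within a library was 1.42, 1.15 and 1.10 in WT_se against 1.95, 1.85 and 2.04 in WT_DTH, and 1.40, 1.14 and 1.20 in KO_se against 1.85, 2.01 and 1.77 in KO_DTH. This ratio, added after the data were seen, rose 1.55-fold (exact permutation p = 0.005, 0.006 adjusted over the 6 ratios).

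Tapbp (ENSMUSG00000024308) encodes tapasin. It held 252, 262 and 236 CPM in WT_se and 510.3, 449.8 and 511 in WT_DTH, and 255, 228 and 229 in KO_se against 542, 587 and 459 in KO_DTH. Groups did not overlap, and it rose by 0.97 ± 0.10 (adjusted p = 7.16e-05) in wild type and by 1.16 ± 0.10 (adjusted p = 4.12e-05) in the knockout. Of 5 further genes of folding, loading and trimming 4 rose averaged over genotypes. They were the chaperones Calr (calreticulin, 0.44 ± 0.06, adjusted p = 0.000138) and Canx (calnexin, 0.17 ± 0.05, adjusted p = 0.0372), the disulfide isomerase Pdia3 (0.26 ± 0.06, adjusted p = 0.0078) and the peptide editor Tapbpl (0.52 ± 0.12, adjusted p = 0.00639). The trimming peptidase Erap1 gave -0.05 ± 0.06 (adjusted p = 0.634).

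B2m (ENSMUSG00000060802), the light chain shared by all class I molecules, was the most abundant gene of the 10 and changed least. It held 1388, 1587 and 1126 CPM in WT_se and 1713, 1872 and 1739 in WT_DTH. In the knockout it held 1560.5, 1558 and 1768 CPM in KO_se and 1953, 1841 and 1749 in KO_DTH. The wild-type groups did not overlap, while KO_se replicate 3 lay above KO_DTH replicate 3. The log2 fold change was 0.38 ± 0.12 in wild type (adjusted p = 0.0408) and 0.18 ± 0.12 in the knockout (adjusted p = 0.384). The averaged rise was 0.28 ± 0.08 (adjusted p = 0.0292).

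The B2m calls were close to the threshold. The averaged call was lost without WT_se replicate 1 (adjusted p = 0.0523), WT_DTH replicate 2 (0.0507), KO_se replicate 1 (0.0669) or KO_se replicate 2 (0.0682). It was also lost with the salivary score (0.0683) or 2 salivary components (0.0553) as covariates, where the log2 fold change was 0.29 ± 0.10 and 0.39 ± 0.12, so the value did not shrink and its SE grew. With the most salivary library of every group left out it was 0.23 ± 0.07 (adjusted p = 0.0718). In wild type it was lost without WT_se replicate 1 (0.0875) or 3 (0.118), WT_DTH replicate 2 (0.079) or 3 (0.0585), or KO_se replicate 1 (0.0539) or 2 (0.0533). The wild-type call was also lost in the fit to the compared groups alone (0.37, adjusted p = 0.0732) and with the replicate block (0.38, adjusted p = 0.0546). It was kept in 11 of 22 alternative fits. Without those 4 libraries (WT_se replicate 3, WT_DTH replicate 2, KO_se replicate 3 and KO_DTH replicate 2) the wild-type value was 0.21 (adjusted p = 0.228).

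Heavy chains pair with B2m. All 10 class I heavy chain genes measured rose averaged over genotypes, with a median of 0.61, 8 of them in wild type and 9 in the knockout. H2-K1, a classical heavy chain, held 2315 ± 178 CPM (mean ± SD, n = 3) in WT_se and 2926 ± 77.2 in WT_DTH, and 2116 ± 46.3 in KO_se against 2909.9 ± 283 in KO_DTH. It rose by 0.40 ± 0.07 averaged over genotypes (adjusted p = 0.000952), and H2-D1, the other classical heavy chain listed, by 0.51 ± 0.06 (adjusted p = 6.28e-05). The non-classical H2-T23 (Qa-1), which presents a leader peptide to NK cells, rose by 0.87 ± 0.08 (adjusted p = 6.42e-06), H2-Q4 by 0.67 ± 0.07 (adjusted p = 1.57e-05) and H2-Q6 by 0.79 ± 0.08 (adjusted p = 1.83e-05). Heavy chain genes are close copies of one another, so their split of reads is uncertain. Of 3 class I-like partners of B2m none rose, by edgeR or DESeq2, and Mr1, the 1 of them with an unadjusted p below 0.05, which presents vitamin metabolites, fell by 0.93 ± 0.15 (adjusted p = 0.000731), from 7.20 ± 1.41 to 3.77 ± 0.984 CPM in wild type. Cd1d1, which presents lipids, gave 0.18 ± 0.14 (adjusted p = 0.395) and the IgG transport receptor Fcgrt gave -0.00 ± 0.09 (adjusted p = 0.987).

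Nlrc5 (ENSMUSG00000074151), the class I transactivator, held 211, 229.7 and 184 CPM in WT_se and 434, 383 and 363 in WT_DTH. In the knockout it held 166, 140.0 and 143 CPM in KO_se and 422, 388 and 333 in KO_DTH. The 2 challenged groups overlapped each other, while the KO_se libraries all lay below the WT_se libraries. How many of all tested genes separate in this way was not computed. Nlrc5 rose by 0.92 ± 0.12 in wild type (adjusted p = 0.000249) and by 1.35 ± 0.12 in the knockout (adjusted p = 4.12e-05), but the difference did not pass (0.43 ± 0.16, adjusted p = 0.195).

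Of 6 other regulators of class I transcription 4 rose averaged over genotypes. Irf9, the DNA-binding part of the type I interferon factor, rose by 1.13 ± 0.09 (adjusted p = 3.55e-06), Irf1 by 0.68 ± 0.08 (adjusted p = 5.63e-05) and its relative Irf2 by 0.44 ± 0.06 (adjusted p = 0.000203). Rfx5, an RFX subunit, rose by 0.31 ± 0.08 (adjusted p = 0.0204). The other 2 RFX subunits did not pass, with 0.25 ± 0.09 for Rfxap (adjusted p = 0.0751) and -0.09 ± 0.08 for Rfxank (adjusted p = 0.472). Of 7 interferon receptor chains and kinases Jak2 alone rose (0.27 ± 0.07, adjusted p = 0.0124), with a list median of -0.02.

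**Figure D3:**
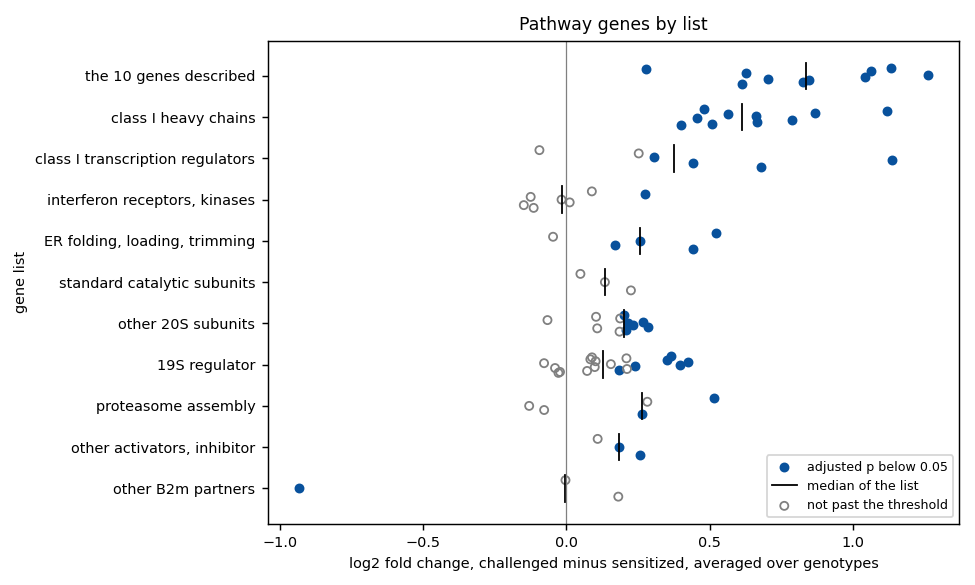
Log2 fold change of challenged against sensitized nodes averaged over genotypes (horizontal axis) for each gene of each list (rows), filled where the adjusted p is below 0.05; the black line is the list's median. The 10 genes described (median 0.84) and the heavy chains (0.61) lie to the right, the standard catalytic subunits (0.13) and 19S genes (0.13) near 0.

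Markers of other cells moved in the same comparison. All 7 monocyte and macrophage markers rose averaged over genotypes, and their summed level went from 438 to 562 CPM in WT_se to 1060 to 1816 in WT_DTH, and from 593 to 808 in KO_se to 1135 to 1433 in KO_DTH. None of them was at 0 in a group. All 9 T cell markers fell averaged over genotypes, with sums going from 1719 to 2119 CPM in WT_se to 1005 to 1364 in WT_DTH, and from 1520 to 1864 in KO_se to 1193 to 1357 in KO_DTH. B cell markers rose in 5 of 6 in wild type and in none of 6 by edgeR in the knockout, where 2 had an unadjusted p below 0.05 and DESeq2 called 2 lower. Of 16 salivary markers 14 fell in wild type, while 2 rose in the knockout. All 5 erythroid markers fell averaged over genotypes, with a median of -2.04. Of 5 neutrophil markers 3 rose in wild type and none by edgeR in the knockout, where 2 had an unadjusted p below 0.05. Of 7 stroma and endothelium markers 3 fell averaged over genotypes and none rose. Dendritic cell markers were mixed averaged over genotypes: 1 of 7 rose, 1 fell and 5 had an unadjusted p below 0.05. Their log2 fold changes ran from -0.82 to 1.02, and DESeq2 called 1 higher and 2 lower. Of 5 markers of dividing cells 4 fell in the knockout, while in wild type edgeR called none and DESeq2 called 1 higher. The mitochondrial share also moved, most in wild type, as given with the libraries. The part of these shifts in the rise of the 10 genes was not tested, apart from the salivary signal. With a salivary score as covariate, all 10 kept a positive log2 fold change in wild type (median 0.87, median SE 0.21 against 0.11 without it), but 2 passed, Tap1 and Tapbp, where 0.749% of all genes were called higher. Averaged over genotypes 9 passed (8.90% of all genes). With 2 salivary components the wild-type median was 0.81 and again Tap1 and Tapbp passed (0.664% of all genes), with 9 averaged over genotypes (6.08%). In the knockout 9 passed with the score (3.92% of all genes) and 5 with 2 components (1.35%), with medians of 0.75 and 0.93.

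The comparison of genotypes asks whether loss of miR-451a changed the machinery before or after challenge. In sensitized nodes 2 of the 10 genes were called in either direction, where 5.17% of all genes were. Psme2 was higher in the knockout and Nlrc5 lower, and the median of the 10 was 0.18. With an unadjusted p below 0.05 the number was 4, where 4406 of the 20,034 genes (22%) were. DESeq2 called 3, adding Psmb9, where it called 11.5% of all genes. In challenged nodes none passed by edgeR (0.599% of all genes were called), 1 had an unadjusted p below 0.05 (14.1% of all genes did), and none passed by the DESeq2 Wald test. Their log2 fold changes there ran from -0.05 to 0.22 with a median of 0.08, and the highest was that of Psmb8 (0.22 ± 0.09, adjusted p = 0.316). The test of the interaction called none by edgeR or DESeq2, against 2.11% of all genes, with 2 at an unadjusted p below 0.05 (16.0% of all genes). Psme2 (-0.45 ± 0.20, adjusted p = 0.299) and Nlrc5 (0.43 ± 0.16, adjusted p = 0.195) had the largest interaction values.

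**Figure D4:**
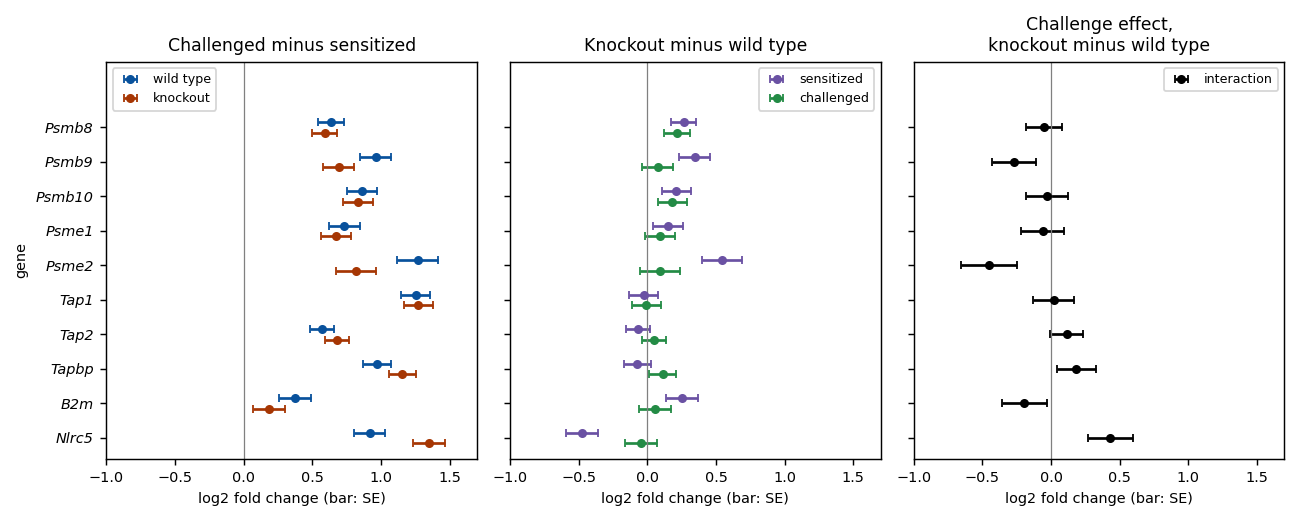
Log2 fold change with SE (horizontal axes) of the 10 genes (rows) for challenged minus sensitized nodes by genotype (left), knockout minus wild type by state (middle) and the difference between the challenge effects (right). Values for challenge lie to the right of 0 in both genotypes; of the genotype values Psme2 (0.54) and Nlrc5 (-0.48) in sensitized nodes lie farthest from 0.

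Nlrc5 was lower in sensitized knockout nodes, at 0.718 times the wild-type level, with 208 ± 22.8 CPM in WT_se and 149.6 ± 14.2 in KO_se (n = 3 each; log2 fold change -0.48 ± 0.11, adjusted p = 0.0329). The 2 groups did not overlap, but how many of all tested genes separate in this way was not computed, so no weight is put on it. The call was lost without WT_se replicate 1 (adjusted p = 0.095) or 2 (0.0982), WT_DTH replicate 2 (0.0519), or KO_se replicate 2 (0.131) or 3 (0.09), with log2 fold changes of -0.47 to -0.40 in those fits. It was also lost with the most salivary library of every group left out (-0.53, adjusted p = 0.122), with the salivary score (-0.47, adjusted p = 0.195), with 2 salivary components (-0.52, adjusted p = 0.0919) and with no filter on low counts (-0.45, adjusted p = 0.0547).

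Psme2 was higher in KO_se than in WT_se by 0.54 ± 0.15 (adjusted p = 0.0495), from 66.2 ± 6.75 to 96.5 ± 6.99 CPM. This call was lost without any single one of WT_se replicates 1 to 3 (adjusted p = 0.154, 0.0618 and 0.121) and KO_se replicates 1 to 3 (0.13, 0.0853 and 0.112), and without WT_DTH replicate 2 (0.0637) or 3 (0.0503), with log2 fold changes of 0.47 to 0.62 in those fits. The salivary score (0.56, adjusted p = 0.218), 2 salivary components (0.58, adjusted p = 0.231), leaving out the most salivary libraries (0.51, adjusted p = 0.201), DESeq2 size factors (0.52, adjusted p = 0.0558) and no filter (0.57, adjusted p = 0.0541) ended it too. Summed with Psme2b the difference was 0.29 ± 0.12 (adjusted p = 0.178).

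The other 8 genes did not pass between sensitized genotypes. Psmb8 gave 0.26 ± 0.09 (adjusted p = 0.119), Psmb9 0.34 ± 0.11 (adjusted p = 0.0936) and Psmb10 0.21 ± 0.11 (adjusted p = 0.28). For all 3 the KO_se libraries lay above the WT_se libraries without overlap. The share of all tested genes that separate in this way was not computed, so no weight is put on it. B2m gave 0.25 ± 0.12 (adjusted p = 0.229). Tap1, Tap2 and Tapbp lay between -0.07 and -0.03.

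Some genes of the standard proteasome were higher in sensitized knockout nodes, namely 2 of 3 catalytic subunits, 7 of 11 other 20S subunits, 5 of 18 of the 19S cap and 1 of 5 of assembly. Among all 20,034 tested genes 754 were called higher. Psmb7 was higher in KO_se than in WT_se by 0.47 ± 0.10 (adjusted p = 0.0223) and Psmb5 by 0.42 ± 0.11 (adjusted p = 0.0445), while Psmb6 gave 0.18 ± 0.08 (adjusted p = 0.232). The other 20S subunits had a median of 0.39. Of these Psma1 differed most, by 0.57 ± 0.09 (adjusted p = 0.0052), and Pomp was higher by 0.62 ± 0.11 (adjusted p = 0.00808). Of the 10 heavy chain genes none passed by edgeR and 3 had an unadjusted p below 0.05, with a median of -0.13, while DESeq2 called 1 higher and 3 lower. All 5 markers of dividing cells were higher in KO_se (322 to 400 CPM summed, against 73.3 to 149 in WT_se). So were 2 of 6 B cell markers (5 by DESeq2), 2 of 5 neutrophil markers and 1 of 7 monocyte and macrophage markers. Of 9 T cell markers 1 was lower (2 by DESeq2). None of 7 dendritic cell markers passed by edgeR or DESeq2, and none had an unadjusted p below 0.05. Of 16 salivary markers none passed by edgeR, 3 were lower by DESeq2 and 12 had an unadjusted p below 0.05; all 16 had lower fitted values in the knockout. The part of these shifts in the genotype values was not tested beyond the salivary covariates.

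Per kilobase of annotated exon, the scale on which levels of different genes can be compared, B2m led with 1590 ± 269 CPM per kb in WT_se and 2064 ± 99.4 in WT_DTH, and with 1894 ± 140.3 in KO_se and 2148 ± 118 in KO_DTH. Psme1 followed with 93.4 ± 14.1, 155 ± 14.5, 104 ± 5.88 and 165 ± 11.3 in the same order, and then Tapbp with 68.9 ± 3.61, 135 ± 9.71, 65.5 ± 4.23 and 146 ± 17.9. In WT_se came Psmb8 (45.2 ± 4.96), then Psme2 (37.5 ± 3.82), Psmb10 (35.3 ± 5.37) and Tap2 (32.2 ± 2.48), of which the last 3 were not separated from their neighbours beyond the spread. Tap1 (27.0 ± 1.74) and Nlrc5 (24.5 ± 2.68) were not separated beyond their spread in WT_se, and Psmb9 was lowest (14.3 ± 0.896). After challenge Tap1, at 64.3 ± 6.39 in WT_DTH, stood level with Psmb10 at 64.1 ± 4.4. Nlrc5 was last in KO_se (17.6 ± 1.67, beside Psmb9 at 18.1 ± 1.96) and was next to last in the other 3 groups. Exon lengths are unions over all annotated transcripts, which understates genes with long rare isoforms.

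Across the 12 libraries the 10 genes followed one another. Pearson's r of a gene's log2 CPM with the mean of the other 9 was highest for Psmb10 (0.989) and Psme1 (0.978), and lowest for B2m (0.773) and Nlrc5 (0.875). These values describe 12 libraries in 2 states, share library scaling, and are mostly the difference between states. Among 8472 genes outside the lists with a mean of at least 10 CPM, the 6 most like the mean of the 10 genes were Cxcl10, a chemokine for activated T cells (r = 0.989), the vault protein Mvp (0.988), the lysosomal protease Ctsz (0.987), Klhdc4 (0.986), the small GTPase Rac1 (0.986) and the protease inhibitor Serpina3g (0.983). Their sizes of change differed. Cxcl10 held 6.01 ± 1.52 CPM in WT_se and 40.1 ± 4.51 in WT_DTH, a log2 fold change of 2.49 ± 0.14 averaged over genotypes, while Rac1 held 148 ± 4.08 and 167 ± 3.55 CPM and changed by 0.18 ± 0.04.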

How the data were processed

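Total RNA of mandibular lymph nodes (RNeasy Mini, NEBNext Ultra II Directional kit, per the labels' protocols) was sequenced in 12 libraries. The authors deposited 1 table of estimated counts (expected counts) per gene for 56,941 gene IDs. The submitters' processing notes name fastp 0.23.2, HISAT2 2.2.1, StringTie 2.2.1 and GRCm39. How reads shared by close copies were assigned is not given in the sources used here. Library totals were 36.9 to 58.4 M. Groups come from the labels, which do not say whether libraries are separate animals; a p-value here covers only variation among the libraries sequenced, which may be technical.

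Counts were rounded and tested with edgeR 4.0.16 in R 4.3.3: TMM scaling, genes kept by filterByExpr (minimum count 10), 1 mean per group over all 12 libraries, 8 residual degrees of freedom, quasi-likelihood tests, two-sided, and Benjamini-Hochberg adjustment over the 20,034 genes kept at a threshold of 0.05. CPM are scaled by TMM. Within-library ratios were tested by exact permutation, with a change of state permuted within genotype. The edgeR test was checked on simulated counts with 200 genes changed by a log2 of 1. It recovered 77% of them for the averaged challenge and 37.5% for the interaction. False calls were 2.6% of calls for the interaction and up to 7.1%, for genotype when sensitized.

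The 10 genes, pathway lists and markers were chosen with earlier results of these data known. Genes named are the 10, a fixed set of pathway genes, up to 3 further members of each of 10 pathway lists by smallest p in the averaged challenge effect, and the 6 genes most like the 10 in pattern; Mr1, Cd1d1 and Fcgrt, Rfxap and Rfxank complete their lists, and Psma1 was named after its value was seen. All 148 list entries matched, 1 by a synonym (Muc19 through Smgc). GENCODE M21 and RefSeq on GRCm38.p6 differ in build from the table and served only for names, exon lengths, gene order and promoter sequence. The targeted microRNA and 1 listed gene are not reported here.

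Alternatives were DESeq2 size factors, the DESeq2 1.42.0 Wald test, library sizes without mitochondrial, salivary and erythroid genes, no filter, a mean of at least 50 counts, a fit to the compared groups alone, a replicate block, a salivary score, 2 salivary components, leaving out the most salivary library of every group, and each library left out in turn. Sums of Psme2 with Psme2b and the ratios other than those of catalytic subunits were added after the data were seen.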

Additional observations from a re-analysis of the deposited data

How the results depend on the processing

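Challenge averaged over genotypes called 9 or 10 of the 10 genes in every alternative run, B2m being the one lost. For scale, the genes called higher numbered 1218 of 20,034 with 2 salivary components and 2369 of 13,911 with a mean of at least 50 counts. In wild type 2 passed with the salivary score and 2 with 2 salivary components, and in the knockout 5 passed with 2 components; all log2 fold changes stayed above 0 and their SE grew. Of the 2 genes called between sensitized genotypes, 1 was left with DESeq2 size factors, 1 with the replicate block, 0 with no filter, 0 with the salivary score, 0 with 2 components and 0 with the most salivary library of every group left out. Over all genes these fits called 1034 of 20,034, 880 of 20,034, 848 of 32,174, 249 of 20,034, 212 of 20,034 and 351 of 20,070, in that order. Without 1 library the number was 0 to 2, where 369 of 20,878 to 1100 of 20,865 genes were called. The cause was not tested. Without the most salivary library of every group 2 libraries remained per group. The exact permutation test of the ratios then could not go below p = 0.0556, which each of 5 gave: Psmb8 over Psmb5 0.475, Psmb9 over Psmb6 0.721, Psmb10 over Psmb7 0.747, Tap1 over Tap2 0.58 and Psme1 over Psme3 0.371 in log2. Psme2 over Psme1 was 0.322 and passed without KO_se replicate 3 (0.359) or KO_DTH replicate 2 (0.409); leaving out 1 library gave 0.23 to 0.409. Erap1 reversed with 2 components (0.011), a value near 0 that passed in neither fit. With the replicate block 10 genes passed for averaged challenge, 9 in wild type (B2m was lost), 9 in the knockout, and none by edgeR between challenged genotypes or for the interaction. Among all 20,034 genes the block gave 2271, 1855 and 1062 called higher in the averaged, wild-type and knockout challenge comparisons. Libraries with the same number did not deviate together throughout (correlations -0.098 to 0.141); in both genotype comparisons, but in neither challenge comparison, each library correlated best with its own number. Over all genes 38 were called with the block and 120 without it between challenged genotypes, and 128 and 422 for the interaction. Each of the 10 genes had 1850 counts or more in every library, where counting error is at most 2.3%.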
